A study of Mus musculus with 2 samples.

Results

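The 35 genes described here encode the machinery of mitosis and of the G2 to M transition, from CDK1 and its cyclins to the proteins that cut the dividing cell apart. They were chosen as known mitosis genes, with earlier results of these data known, and each was read from the probe matched to its RefSeq transcript, the brightest probe where a gene had several. They stand among 20653 genes named on the array, of which 16312 had a fold change. Monocytic myeloid-derived suppressor cells (M-MDSCs), immature myeloid cells that dampen T-cell responses, were taken from tumours of female BABL/c mice that had been fasted and then injected under the skin with 1000000 4T1 cells, a mouse mammary carcinoma line. For 16 days the mice were kept on a normal-salt diet (NSD), meaning chow of 0.4% NaCl with tap water, or on a high-salt diet (HSD), meaning chow of 4% NaCl with water of 1% NaCl. All mice bore a tumour, so both groups were tumour-bearing and no tumour-free control enters the comparison. The cells were isolated with a magnetic-bead kit, cells of the mice of a group were pooled in equal number, and the RNA of each pool was hybridised to 1 Agilent mouse array. With 1 array per diet there is no replicate, so the comparison is between these 2 pools, and no test across animals was possible. The values below are background-subtracted processed signals, and each log2 fold change is HSD minus NSD after every array was divided by its 75th percentile signal (252 in NSD and 233 in HSD). A gene was called higher or lower at 1.5-fold, the study's own threshold.

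In a cycling cell, CDK1 bound to cyclin B drives entry into mitosis, the spindle captures chromosomes at their kinetochores, a checkpoint holds the cell until every kinetochore is attached, and the anaphase-promoting complex then destroys cyclin B and releases the sister chromatids. Most genes of this machinery are transcribed late in the cell cycle through a short promoter element, the cell cycle genes homology region (CHR), which the MuvB proteins bind with B-MYB and FOXM1, often downstream of CCAAT boxes bound by NF-Y. Bone marrow precursors of monocytes and neutrophils divide, and the RNA of these genes is low in cells that have left the cycle. In RNA of a whole cell pool, a larger share of dividing cells and more of this RNA per dividing cell cannot be told apart, just as fewer cells of a type and less RNA per cell cannot be told apart.

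Promoter sequences from RefSeq (GRCm38.p6) were matched for 31 of the 35 genes, as windows from 250 bases before to 50 bases after an annotated start. Ccna2, Tpx2, Aurkb and Kif20a were not matched. Stretches upstream of the start are given for 3 matched genes at least 1.5-fold higher in HSD (Kif11, Mki67 and Ube2c) and for 3 below that threshold (Cdk1, Cdc20 and Ccnf), chosen because their CHR and CCAAT both lie ahead of the start. Each runs 5′ to 3′ on the gene's own strand and ends at the last base before the start, with capitals marking the CHR letters and the CCAAT letters read on either strand. Of the higher genes, Kif11 was read from chr19:37376232-37376381 on the plus strand, Mki67 from chr7:135716380-135716579 on the minus strand and Ube2c from chr2:164769779-164769928 on the plus strand.
Kif11: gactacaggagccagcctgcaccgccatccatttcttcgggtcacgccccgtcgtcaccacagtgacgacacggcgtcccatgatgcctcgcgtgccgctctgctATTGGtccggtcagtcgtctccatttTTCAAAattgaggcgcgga
Mki67: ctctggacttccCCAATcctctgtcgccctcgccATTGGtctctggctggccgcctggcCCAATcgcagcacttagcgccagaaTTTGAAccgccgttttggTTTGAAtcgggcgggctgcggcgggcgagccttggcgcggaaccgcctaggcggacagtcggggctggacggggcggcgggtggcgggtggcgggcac
Ube2c: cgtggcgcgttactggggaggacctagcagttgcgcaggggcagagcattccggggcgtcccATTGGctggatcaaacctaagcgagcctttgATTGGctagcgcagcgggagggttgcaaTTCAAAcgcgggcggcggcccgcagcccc
Of the other genes, Cdk1 was read from chr10:69352913-69353062, Cdc20 from chr4:118437344-118437493 and Ccnf from chr17:24251410-24251589, all on the minus strand.
Cdk1: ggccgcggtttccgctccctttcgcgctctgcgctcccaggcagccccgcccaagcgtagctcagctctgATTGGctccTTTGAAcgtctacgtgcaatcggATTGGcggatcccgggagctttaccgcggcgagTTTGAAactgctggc
Cdc20: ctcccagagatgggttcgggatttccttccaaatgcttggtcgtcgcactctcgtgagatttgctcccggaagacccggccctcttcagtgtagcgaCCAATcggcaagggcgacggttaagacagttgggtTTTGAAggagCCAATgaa
Ccnf: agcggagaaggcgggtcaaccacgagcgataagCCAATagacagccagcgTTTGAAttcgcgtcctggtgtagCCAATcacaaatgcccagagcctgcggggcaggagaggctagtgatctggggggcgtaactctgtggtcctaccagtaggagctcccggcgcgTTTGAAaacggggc
Since these 6 were picked for holding the elements, they show how the pair is laid out and not how often it occurs. Kif11 holds 1 CCAAT and 1 CHR whose first bases are 26 bases apart, Ube2c a pair at 28 bases and Cdc20 a pair at 35 bases, whereas Mki67 carries 3 CCAAT ahead of 2 CHR.

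The CHR was searched as TTTGAA or TTCGAA, the NF-Y box as CCAAT and the E2F site as TTTGGCGC or TTTCCCGC, each on both strands. TTCGAA reads alike on both strands and was counted once, and the letters of no motif contain those of another. A match describes the letters and is not a bound site. A CHR was present in 26 of the 31 mitosis genes (83.9%), against 21.7% of the 27025 genes in the promoter table. It was also present in 62.3% of the 53 other mitosis genes. The shares were 33.3% for the listed G2/M regulators, 24% for DNA replication genes and 15.8% for arrest genes. CCAAT was present in 25 of 31 (80.6%), against 41.1% of all genes, but it was also present in 75% of the listed G2/M regulators, 73.7% of arrest genes and 68% of DNA replication genes. Both lay in 1 window for 23 of 31 (74.2%), against 8.61% of all genes. That share was 45.3% for the other mitosis genes, 33.3% for G2/M regulators, 20% for DNA replication genes and 5.26% for arrest genes. The E2F letters were found in 0 of the 31 genes and in 1.80% of all genes, whereas 9 of 25 DNA replication genes (36.0%) and 8 of 53 other mitosis genes (15.1%) held them. Within the mitosis genes the CHR was in 6 of 6 matched genes that passed 1.5-fold and in 20 of 25 (80.0%) that did not, and CHR and CCAAT lay in 1 window for 6 of 6 and 17 of 25 (68%). Nuf2, Nusap1, Cenpe, Birc5 and Ccnb1 had no CHR letters in the window. In 24 genes a CHR lay from 50 bases before the start onward, 19 genes had at least 2 CCAAT, and in 12 genes a CHR followed its nearest CCAAT by 25 to 45 bases.

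**Figure D1:**
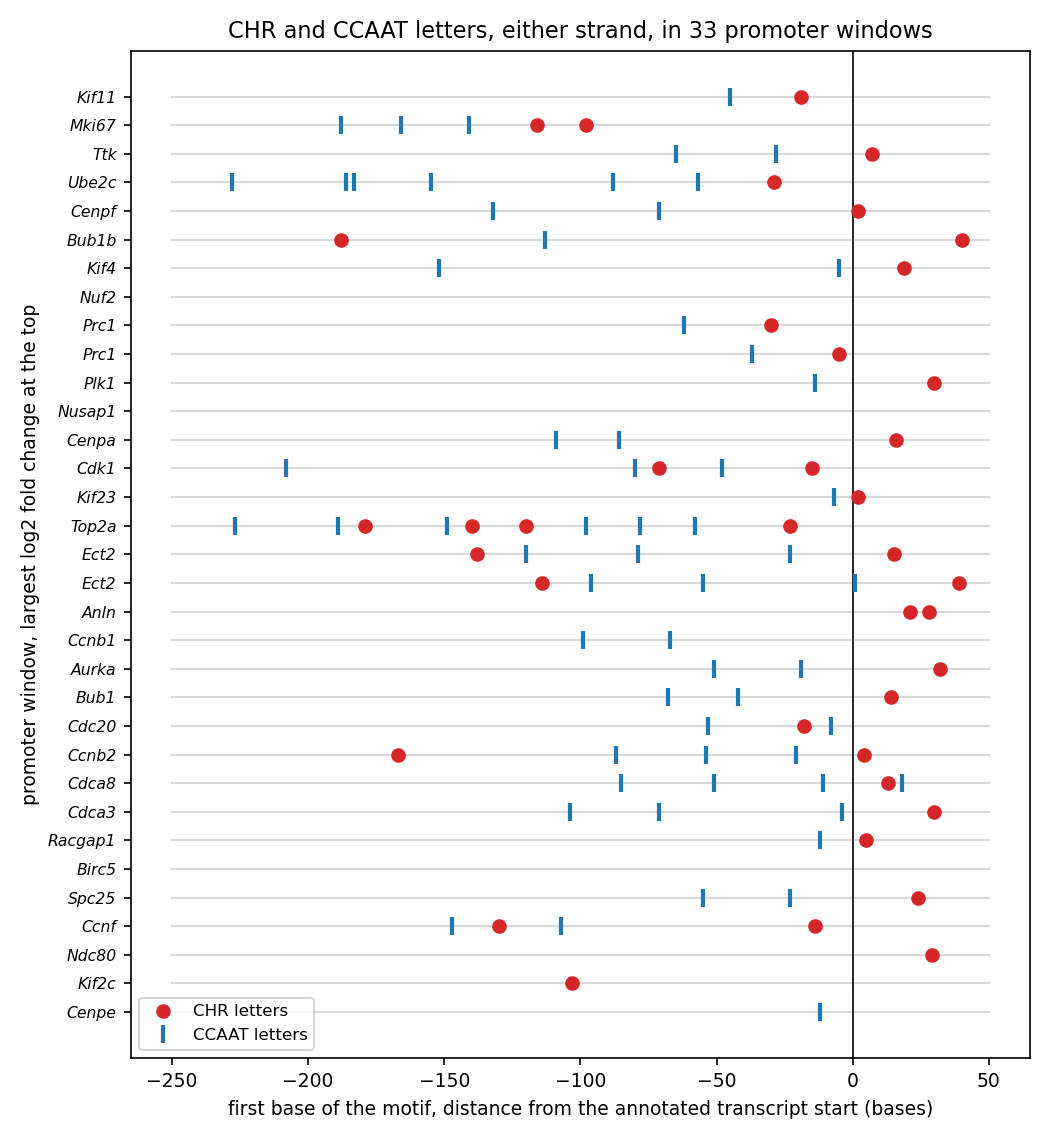
Position of CHR letters (red circles) and CCAAT letters (blue bars) on either strand in the 33 promoter windows of 31 mitosis genes, as distance in bases from the annotated start, with genes ordered by log2 fold change from the largest at the top. In 24 genes a CHR lies from 50 bases before the start onward. Genes that lack the CHR, the CCAAT or both occur high in the order (Nuf2 and Nusap1) and at its bottom (Cenpe, Kif2c, Ndc80 and Birc5). Ccnf, Spc25 and Racgap1, also near the bottom, hold both.

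Nearly all mitosis genes had a log2 fold change above 0 in M-MDSCs of HSD mice, most of them a small one. All 35 were well above background on both arrays, 34 had a log2 fold change above 0, and their median was 0.33 with quartiles of 0.20 and 0.52. Over all 16312 genes 54.2% lay above 0 and the median was 0.05. At 1.5-fold, 7 of the 35 (20%) were higher in HSD, beside 9.86% of all genes, and 0 were lower, beside 10.3% of all genes. The 7 were Kif11, Mki67, Ttk, Ube2c, Tpx2, Cenpf and Bub1b. The gap to all genes narrowed to 8.57% beside 7.63% with cyclic loess and to 5.71% beside 3.85% with normexp, so the share of higher calls near the background there is no result about these genes. Genes of like brightness gave a similar background: among the 2726 genes with a mean signal between the lower and upper quartiles of the mitosis genes (163 to 545), 48.5% lay above 0, the median was -0.02 and 8.55% were at least 1.5-fold higher. The scaling adds the same amount to each value, because the HSD array was dimmer. Ndc80, with near-equal signals of 143.7 in NSD and 143.8 in HSD, reached 0.12 through it. Before scaling the HSD signal was the higher of the pair for 33 of the 35, by very little for some, such as Ccnf (1.01-fold). Of the 7 called genes, Kif11 alone passed 1.5-fold before scaling (1.64-fold), with Mki67 next at 1.49-fold.

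**Figure D2:**
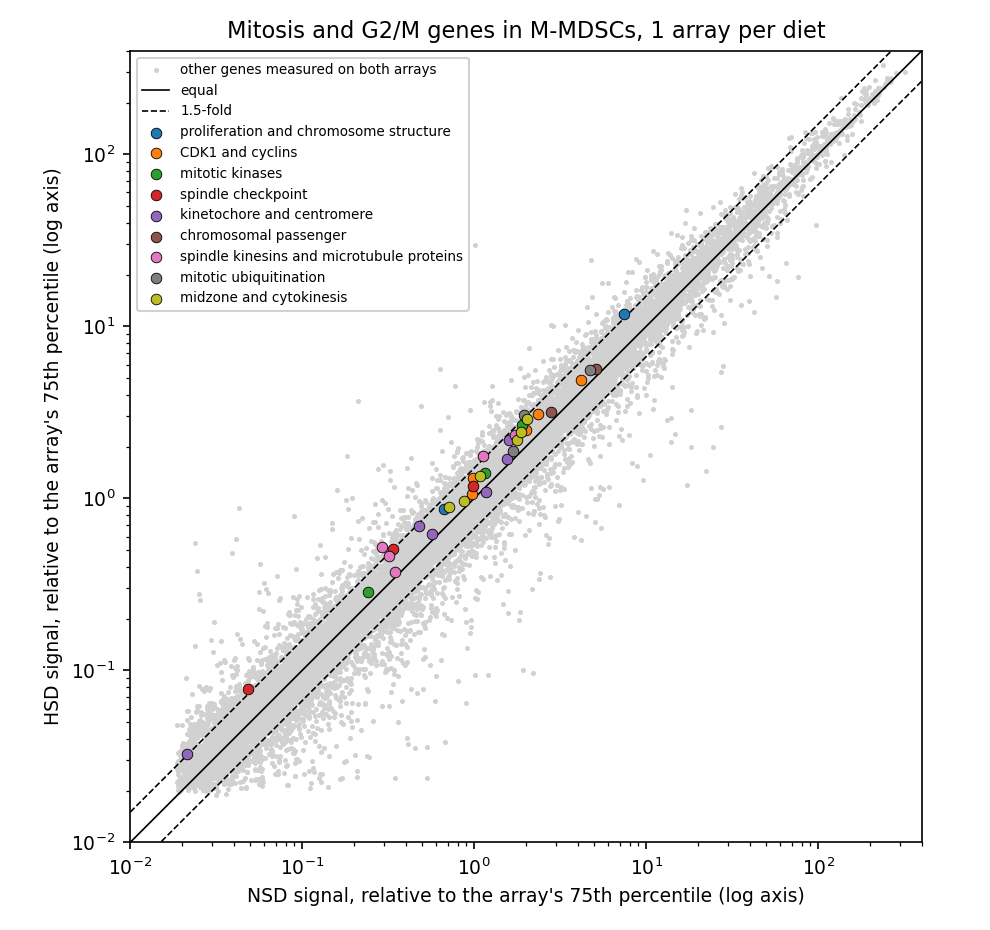
Signal in NSD (horizontal) and HSD (vertical), each relative to the array's 75th percentile on log axes, with 1 point per gene, mitosis genes coloured by role and other measured genes in grey. Of the 35 genes 34 lie above the line of equality, 7 of them past the dashed 1.5-fold line.

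Of the general proliferation genes, Mki67 passed 1.5-fold and Top2a did not. Mki67, which encodes the Ki-67 protein that coats mitotic chromosomes and marks cycling cells, had a signal of 1861 in NSD and 2764 in HSD, a log2 fold change of 0.69 (1.61-fold). Its other probe gave 0.53. Top2a, the topoisomerase that untangles sister chromatids, read 168 in NSD and 202 in HSD, a log2 fold change of 0.38. 

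CDK1 and the cyclins all leaned the same way and none passed 1.5-fold on its brightest probe. Cdk1, the kinase that starts mitosis, read 247 in NSD and 307 in HSD (log2 fold change 0.43). Ccna2, the cyclin of S phase and early mitosis, read 592 and 719 (0.39), and Ccnb1, the main mitotic cyclin, read 508 and 584 (0.32). Ccnb2, the other B-type cyclin, read 1059 and 1138 (0.22). Ccnf, an F-box protein of a ubiquitin ligase despite its cyclin name, read 245 and 248 (0.13), the smallest difference of the 5. The brightest probe was also the more modest one for Ccnb1, whose other probes brought its values to 0.32 to 0.73, and the 3 probes of Cdk1 ran from 0.41 to 0.83.

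The mitotic kinases lay above 0 and none passed 1.5-fold. Plk1, the Polo-like kinase of centrosomes and mitotic entry, read 479 in NSD and 620 in HSD (log2 fold change 0.49). Aurka, the Aurora kinase of the spindle poles, read 291 and 328 (0.28). Aurkb, the catalytic subunit of the chromosomal passenger complex, read 60.9 and 66.5 (0.24). The partners of Aurkb differed even less, as Birc5 (survivin) read 1284 and 1311 (0.15) and Cdca8 (borealin) read 701 and 736 (0.18). The 3 probes of Birc5 ran from 0.03 to 0.33.

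Of the spindle checkpoint genes, Ttk and Bub1b passed 1.5-fold and Bub1 did not. Ttk, the kinase MPS1 that starts checkpoint signalling, was weakly detected, with 12.3 in NSD and 18.1 in HSD (log2 fold change 0.68, 1.60-fold). Bub1b, which encodes the checkpoint inhibitor BUBR1, read 84.8 and 119 (0.60, 1.52-fold), only just past the threshold. Bub1, the kinase that recruits checkpoint proteins to kinetochores, read 250 and 273 (0.24). It was printed as 10 spots, and the SD of its log2 signal between spots was 0.06 in NSD and 0.10 in HSD, smaller than its difference between the arrays, although spots of 1 array measure scanning and hybridisation error and not the spread between mice.

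The kinetochore genes ranged from -0.09 to 0.62. Cenpf, a large kinetochore and nuclear matrix protein, was close to the limit of detection, with 5.39 in NSD and 7.66 in HSD (log2 fold change 0.62, 1.54-fold), where the lowest signals well above background were 4.61 and 4.39. Cenpa, the histone H3 variant that marks centromeres, read 404 and 509 (0.45). The subunits of the NDC80 complex, which grips microtubules, differed among themselves: Nuf2 read 121 and 161 (0.53), whereas Ndc80 read 143.7 and 143.8 (0.12) and Spc25 read 389 and 396 (0.14). Cenpe, the kinesin that moves chromosomes to the spindle equator, was the exception in direction, with 294 in NSD and 255 in HSD (-0.09), well inside its measurement error.

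The spindle motors and microtubule proteins held the largest increase. Kif11, the kinesin that pushes the spindle poles apart, read 73.7 in NSD and 121 in HSD (log2 fold change 0.83, 1.77-fold). Tpx2, which activates Aurora A on spindle microtubules, read 285 and 409 (0.63, 1.55-fold), with 0.45 from its other probe. Kif4, a chromosome-bound kinesin, read 80.5 and 108 (0.54), and Nusap1, a spindle-bundling protein, read 433 and 548 (0.45). Kif2c, a kinesin that shortens microtubules, read 87.2 and 86.9 on its brightest probe (0.11), so that value above 0 comes from the scaling alone. Its other, dimmer probe read 35.9 and 38.5 (0.22).

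Among genes of mitotic protein destruction, Ube2c stood apart. Ube2c, the ubiquitin-conjugating enzyme of the anaphase-promoting complex, read 491 in NSD and 709 in HSD (log2 fold change 0.64, 1.56-fold), with 0.47 from its other probe. Cdc20, the activator of the same complex, read 1190 and 1297 (0.24). Cdca3, a mitotic entry protein that targets WEE1 for destruction, read 424 and 439 (0.16).

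The genes of the central spindle and of cytokinesis all lay above 0 and none passed 1.5-fold. Prc1, which cross-links microtubules between the separating chromosomes, read 512 in NSD and 671 in HSD (log2 fold change 0.50). Kif23 and Racgap1 together form centralspindlin, and they read 470 and 566 (0.38) for Kif23 and 221 and 226 (0.15) for Racgap1. The other probe of Racgap1 read 120 and 136 (0.30). Ect2, the exchange factor that switches on RhoA at the cleavage site, read 180 and 208 (0.33). Anln, the scaffold of the contractile ring, read 272 and 315 (0.33), and Kif20a, a midzone kinesin, read 448 and 506 (0.29). Prc1, Kif4 and Nuf2 were the 3 genes that lay between 0.5 and the threshold of 0.58.

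**Figure D3:**
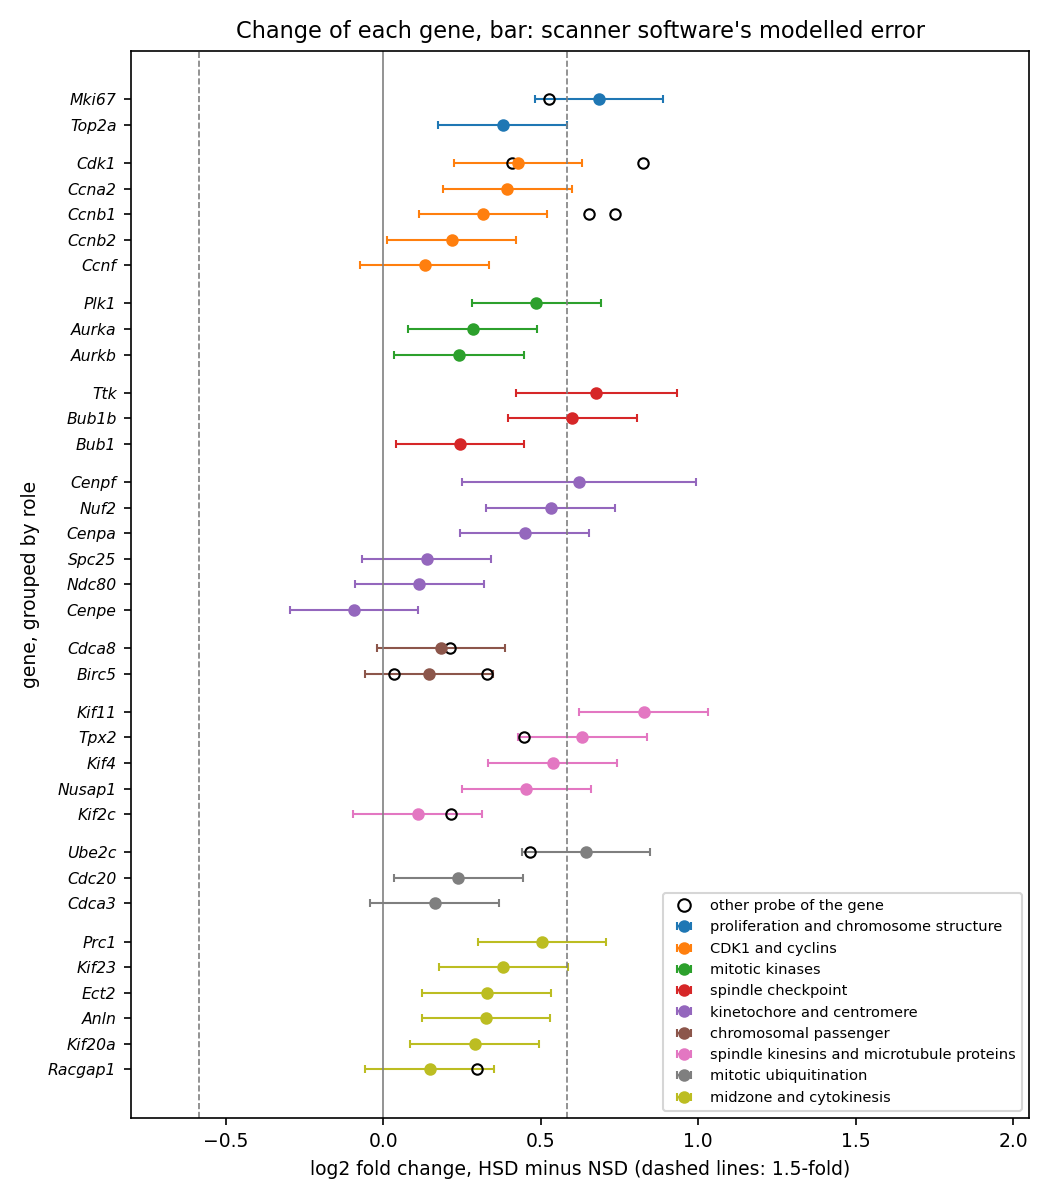
Log2 fold change (HSD minus NSD) of each of the 35 genes, grouped and coloured by role, with bars for the measurement error modelled by the scanner software and open circles for other probes of the gene. Cenpe alone lies below 0, Kif11 has the largest value (0.83), and many bars cross 0.

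Measurement error within an array was of the order of the differences. The error that the scanner software models for each spot gave a median error of 0.20 for the log2 fold change of a mitosis gene (range 0.20 to 0.37). By that scale 26 of the 35 values exceeded 1 error and 13 exceeded 2. Between spots of 1 probe the spread was smaller, with a median SD of 0.08 over 289 probes printed at least 5 times. For 9 genes with several usable probes every probe lay above 0 after scaling, and the probes of a gene differed by 0.03 (Cdca8) to 0.42 (Ccnb1). Before scaling, a probe of Birc5 (132 in NSD and 125 in HSD) and the brightest probe of Kif2c (87.2 and 86.9) were lower in HSD. A second probe of Nuf2 was too dim on both arrays to be used. None of these errors covers the spread between mice or between pools, which was not measured.

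How the arrays were processed changed the number of genes past 1.5-fold far more than the direction. Under every one of the other scalings, filters and probe rules 34 of the 35 stayed above 0, Cenpe being the same exception, and the median of the group ran from 0.25 to 0.38 while that of all genes ran from -0.02 to 0.08. The filters on dim probes could not change the values of the 35, which were all well above background on both arrays. The number at least 1.5-fold higher was 6 with quantile normalisation (17.1%, beside 8.46% of all genes) and 5 when arrays were scaled on probes well above background on both (14.3%, beside 8.54%). It was 3 with cyclic loess (Mki67, Ttk and Kif11) and 2 with normexp background correction (Mki67 and Ube2c), where the shares came close to those of all genes. Normexp with an offset of 50 shrinks differences of dim spots by its construction, and the values of Cenpf (0.15) and Ttk (0.21) became small under it. Mki67 alone passed 1.5-fold every time, with values from 0.60 to 0.69, read from its brightest probe or as the median of its probes. Its other probe, about as bright (1932 in NSD and 2571 in HSD), gave 0.53 with the reported scaling, below 1.5-fold. At 2-fold 0 of the 35 passed, beside 2.62% of all genes. Over all genes, higher calls made up 48.9% of all calls and 38.5% with cyclic loess.

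**Figure D4:**
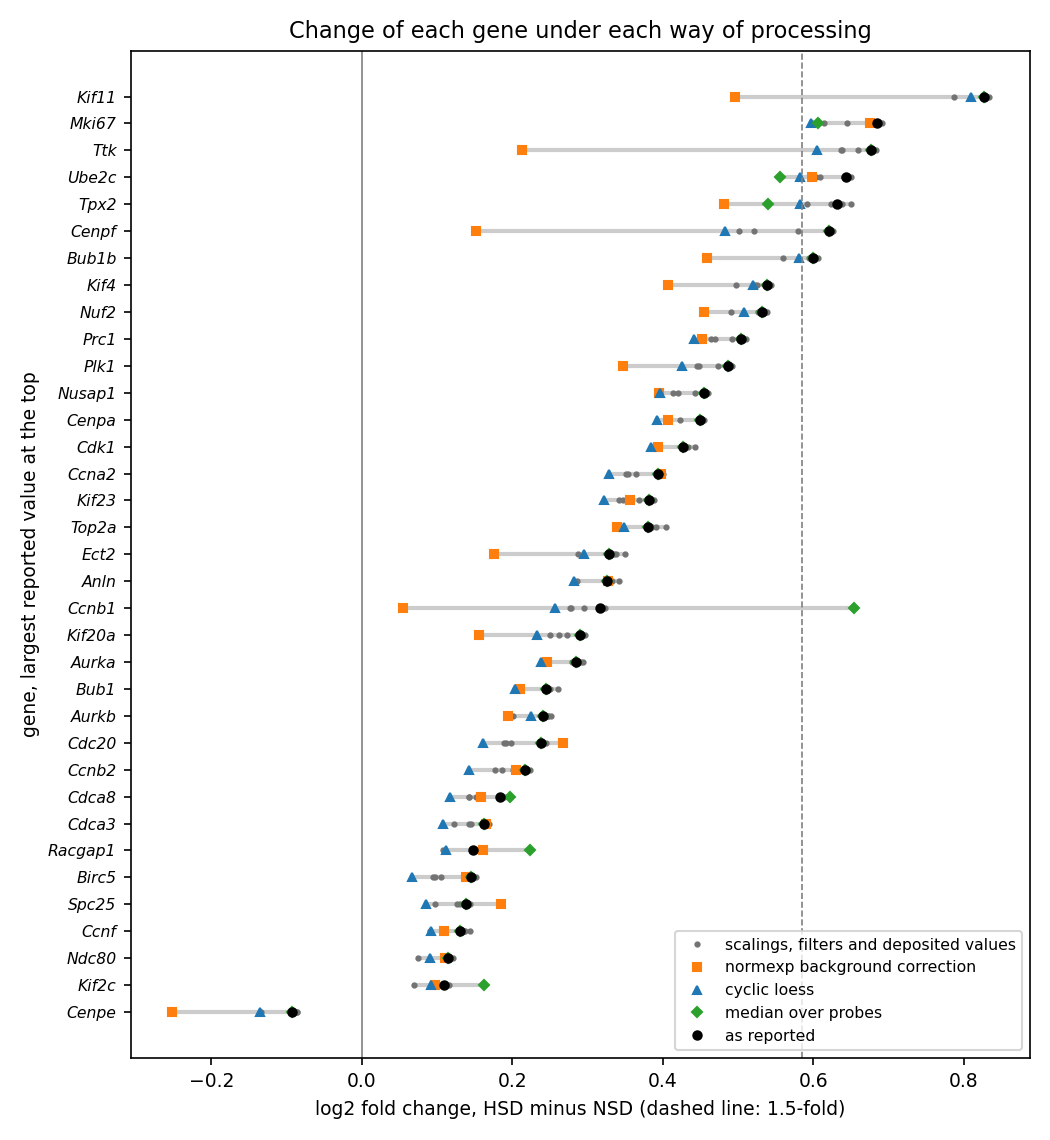
Log2 fold change (HSD minus NSD) of each gene as reported (black) and under each other way of processing, with the grey line spanning the lowest to the highest value and the dashed line at 1.5-fold. Mki67 stays right of the dashed line throughout, and Ttk, Cenpf and Ccnb1 have long lines.

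Mitosis genes outside the 35 also lay mostly above 0. In a list of 61 further spindle, condensin, kinetochore and mitotic exit genes, 59 had a fold change, 52 were above 0 and the median was 0.30. Only 3 (5.08%) were at least 1.5-fold higher, a smaller share than the 9.86% of all genes. At least 1.5-fold lower was 1 gene (1.69%, beside 10.3% of all genes). The 3 were Kifc1, a minus-end kinesin that focuses spindle poles (103 in NSD and 240 in HSD, log2 fold change 1.33), Cks2, a CDK-binding subunit (848 and 1202, 0.62), and Ckap2l, a spindle protein (42.3 and 58.7, 0.59). The gene that went down was Dsn1, a kinetochore subunit (168 and 71.6, -1.12), and the next lowest were Espl1, which encodes separase (23.1 and 16.3, -0.39), and Ckap5, a microtubule polymerase (852 and 689, -0.19). Kif14 had no matched probe and Cenpm was not well above background.

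The regulators of the G2 to M step were likewise mostly above 0. Of 17 such genes 16 were above 0, beside 54.2% of all genes, and the median was 0.37. Under the other ways of processing that median ran from 0.22 to 0.38. At 1.5-fold, 4 were higher (23.5%, beside 9.86% of all genes) and 0 lower (beside 10.3% of all genes). Cdc25b, the phosphatase that activates CDK1, read 192 in NSD and 412 in HSD (log2 fold change 1.22, 2.33-fold). The other 3 belong to the MuvB core that binds the CHR: Lin9 read 194 and 280 (0.64), Rbbp4 read 1982 and 2801 (0.61) and Lin54, its DNA-binding subunit, read 644 and 900 (0.60). These 3 lay only just past 1.5-fold. The other MuvB core genes of the list, Lin37 (204 and 226, 0.26) and Lin52 (482 and 594, 0.42), did not pass it. Both were named after their values were seen. Nfya, a subunit of the CCAAT-binding NF-Y, was the only one of the 17 genes below 0 (388 and 312, -0.20). Foxm1 (0.32) and Mybl2 (0.37), which encode FOXM1 and B-MYB and were named after their values were seen, for their place at the CHR, did not pass 1.5-fold.

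DNA replication genes, which belong to S phase, had a smaller median. All 30 had a fold change, 18 were above 0 and the median was 0.10, against 0.33 for the 35 mitosis genes and 0.05 for all genes. At 1.5-fold, 1 gene was higher (3.33%, beside 9.86% of all genes) and 1 lower (3.33%, beside 10.3%). The lower was Ung, the uracil-DNA glycosylase of base repair (9864 in NSD and 5583 in HSD, log2 fold change -0.71). Mcm5, a subunit of the replicative helicase, read 223 and 297 (0.53) and Tk1, a thymidine kinase, read 306 and 388 (0.46), neither past the threshold. Gins1 (-0.21) and Orc1 (-0.11), which act in helicase loading and firing, were the next lowest. The difference between the replication and mitosis lists was not tested, as there is 1 array per diet, and the median of the replication list ran from 0.06 to 0.11 under the other ways of processing.

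**Figure D5:**
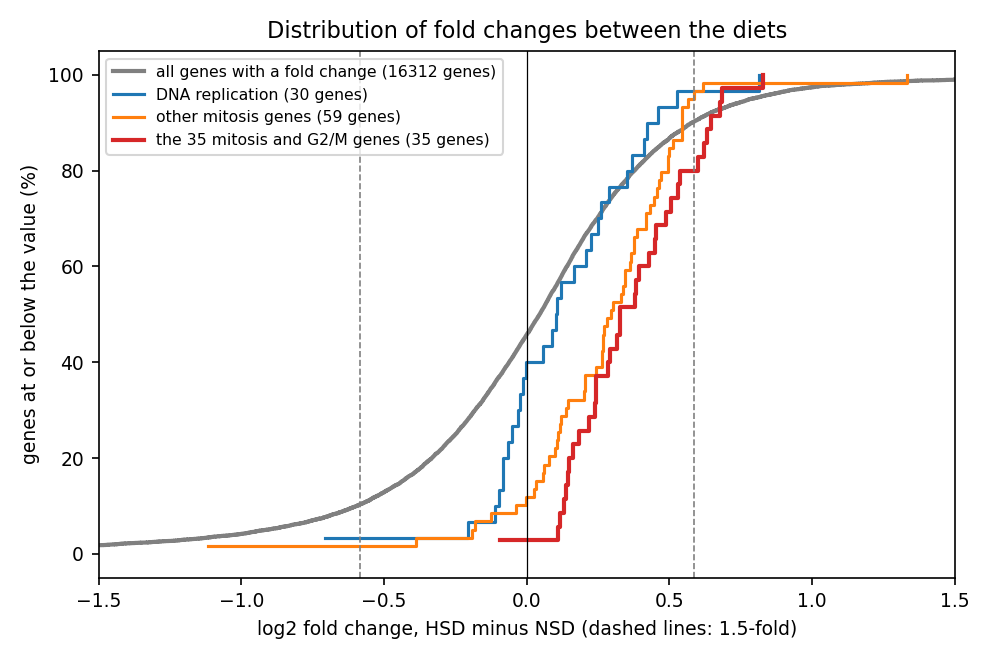
Cumulative share of genes (percent) at or below each log2 fold change, HSD minus NSD, for the 35 mitosis and G2/M genes (red), 59 other mitosis genes (orange), 30 DNA replication genes (blue) and all 16312 genes (grey), with dashed lines at 1.5-fold. At their medians (0.33 and 0.30, beside 0.05) both mitosis curves lie to the right of the grey one. At the upper 1.5-fold line the orange curve lies to the left of the grey one, with 5.08% of its genes higher beside 9.86%. The red curve ends at 0.83, whereas 2.62% of all genes were at least 2-fold higher. The replication curve crosses the grey one too.

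Markers of cell types in the pools also moved between the arrays, and their part in the mitosis values was not tested. The counts of higher and lower markers below stand beside 9.86% and 10.3% of all genes. Of the M-MDSC markers, Ly6c1 read 51811 in NSD and 48478 in HSD (log2 fold change 0.02), Itgam, which encodes CD11b, read 31564 and 31043 (0.09), Ccr2 read 259 and 139 (-0.78), and Ly6c2 had no matched probe. In that list of 11 measured genes 3 were higher and 3 lower, with a median of -0.37. Named after their values were seen, the lower ones besides Ccr2 were Fcgr1 (305 and 21.9, -3.68) and Ms4a6c (765 and 311, -1.18). The 3 higher, named in the same way, were Cd14 (2337 and 3804, 0.82), Cx3cr1 (119 and 188, 0.78) and Chil3 (34255 and 49710, 0.65). The summed signal, here and below over every gene of a list with a probe, was 149700 and 153735, most of it from Ly6c1, Itgam and Chil3. Neutrophil genes were well detected on both arrays, with S100a8 at 57914 and 56478 and S100a9 at 56112 and 51548. Of 11 measured neutrophil genes 0 were higher and 1 lower, with summed signals of 330826 and 318920, and Ly6g had no matched probe. The macrophage list had the largest median difference of the 11 marker lists, with 8 of 10 genes lower in HSD, 0 higher, a median of -1.96 and a sum of 18953 and 9684. Adgre1, which encodes F4/80, read 6723 and 4252 (-0.55), Mertk read 95.9 and 15.4 (-2.52), and C1qa read 12.2 in NSD and was not well above background in HSD. All 6 B-cell genes were above 0 (among them Cd79a at 0.55 and Cd79b at 0.33), 1 of them past 1.5-fold, with sums of 7336 and 9300. Progenitor genes leaned the other way from the mitosis genes, with 0 of 5 measured genes higher and 1 lower, sums of 280 and 175, Kit at 44.9 and 30.2 (-0.46) and Cd34 at 141 and 66.4 (-0.97). Epithelial genes of the 4T1 tumour were weakly detected (sums of 258 and 242, 3 of 9 measured genes higher and 0 lower, Krt19 not well above background), with Epcam at 14.5 and 21.8 (0.70), Krt8 at 8.68 and 12.2 (0.61) and Cdh1 at 45.01 and 30.8 (-0.43). The fibroblast list had 2 of 6 measured genes higher and 2 lower, with a median of -0.32. Its sum went from 1376 to 5807 through 1 gene, Acta2 (1206 and 5660), named after its value was seen, while Col1a1 read 89.1 and 77.2. The remaining lists had sums of 14730 and 14251 for dendritic cells (2 of 7 higher, 1 lower), 2609 and 3055 for T and NK cells (0 of 10 higher, 1 lower), 268 and 292 for endothelium (0 of 5 either way) and 11128 and 11461 for erythroid cells (0 of 5 higher, 1 lower).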

How the data were processed

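RNA of 1 cell pool per diet was labelled with Cy3 and hybridised to 1-colour Agilent arrays. The deposited scanner files hold intensity values that, per the file headers, the authors extracted with Agilent Feature Extraction 11.0.1.1. The authors also deposited a table of log2 values, used here as an alternative. Its columns share the same median (4.61) and upper quartile (7.89), and the study names GeneSpring GX for its normalisation, with no method stated in the sources used here. From the scanner files, control spots and flagged outlier spots (162 in NSD and 179 in HSD) were left out, repeated spots were averaged per probe, and log2 processed signals were set against each array's 75th percentile. A probe was well above background if at least 50% of its spots were, which held for 71.9% and 72.4% of 39429 probes, and no spot was saturated. A gene dim on 1 array only received a lower bound. RefSeq accessions named 27223 probes (69.1%). There are no replicates, so no test was made, and precision is limited by how few arrays there are. Text names all 35 genes, at most the 3 largest rises and 3 largest falls of other lists, and of marker lists the first 3 genes, with exceptions stated, and the values of some genes are not reported here. Members and lists were chosen with earlier results of these data known. The calculation was tested on simulated data. Alternatives were quantile, median, well-above-background and cyclic loess scaling, normexp on median signal and local background (offset 50), the deposited table, both dim-probe filters, flagged spots kept, a median over probes and a 2-fold threshold (Python 3.11.15, R 4.3.3, limma 3.58.1).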

Additional observations from a re-analysis of the deposited data

How the results depend on the processing

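With 1 array per diet, no result has a replicate check, and no setting left out a replicate. No paired analysis was possible because each diet has 1 array. Of the mitosis genes, 34 of 35 were above 0 and 0 were at least 1.5-fold lower under every alternative. The filters on dim probes and the 2-fold threshold could not change their values, as all 35 were well above background on both arrays. The number at least 1.5-fold higher moved from 7 to 3 with cyclic loess, to 2 with normexp and to 0 at a 2-fold threshold. Over all genes the number higher moved from 1608 to 619 with normexp, 2903 with no filter on dim probes and 428 at 2-fold, and the number lower moved from 1682 to 655 with normexp and 681 at 2-fold. The fewer calls at 2-fold, and the additional genes without the filter, follow from how these settings are built, and the offset of normexp shrinks differences of dim spots. For cyclic loess the cause was not tested. Taking the median over probes left 6 genes past 1.5-fold, 5 of them among the 7 reported, with Ccnb1 as the addition. Low signal limits what can be said of Cenpf and Ttk.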

Other observations

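Genes that hold the cell cycle in check also lay mostly above 0. Of 21 genes of cell cycle arrest 16 were above 0, and the median log2 fold change (HSD minus NSD) was 0.23 beside 0.05 for all genes. At 1.5-fold, 3 were higher (14.3%, beside 9.86% of all genes) and 0 lower (beside 10.3% of all genes). The 3 were Cdkn1a, which encodes the CDK inhibitor p21 (67.0 in NSD and 112 in HSD, 0.85, 1.81-fold), Trp53 and Dyrk1a. Trp53, which encodes p53, was weakly detected (14.8 and 21.0, 0.62). Dyrk1a, a kinase that assembles the repressive DREAM complex on MuvB, read 212 and 295 (0.59). The lowest values were those of Cdkn1c, another CDK inhibitor (12.05 and 8.03, -0.47), Rb1, the retinoblastoma protein gene (736 and 611, -0.15), and Rbl2, which encodes p130 (423 and 374, -0.06). The median of this list ran from 0.15 to 0.26 under the other ways of processing.

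Genes of G1 and of S phase entry were mixed. Of 19 measured genes 13 were above 0 with a median of 0.24. At 1.5-fold, 3 were higher (15.8%, beside 9.86% of all genes) and 1 lower (5.26%, beside 10.3% of all genes). Cdk2, the kinase of S phase entry (316 in NSD and 454 in HSD, 0.63), E2f8 (1137 and 1594, 0.60) and E2f2 (6518 and 9113, 0.60) were higher. E2F8 is a repressor and E2F2 an activator of S phase genes. Cdk6 (10.1 and 6.62, -0.50) and Cdk4 (1088 and 818, -0.30), the kinases partnered by D-type cyclins, lay below 0 without passing 1.5-fold. The gene that was lower was Mycn, not well above background in HSD (9.47 in NSD). Ccnd1 was too dim on both arrays to give a fold.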
